A study of Mus musculus with 16 samples.

Results

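Solute carriers (gene symbols Slc followed by a family number) are membrane proteins that move nutrients, ions, transmitters and metabolites across the plasma membrane and the membranes of organelles. Members were the genes whose probe sets the platform annotation ties to exactly 1 symbol of that form, apart from 5 carriers on the array that were set aside (Slc1a2, Slc2a1, Slc2a3, Slc16a1 and Slc32a1). This gave 146 of the 8251 genes represented, measured by 179 of the 12422 probe sets tested, and where a gene had several probe sets, the 1 with the highest mean over 16 arrays stands for it. Carriers use the sodium gradient kept by the sodium pump, the proton gradient of vesicles, or the gradient of their own substrate. In retina they are known for bringing glucose, lactate, taurine and vitamins across the pigment epithelium and for clearing transmitters at synapses. In growing cortex, amino acid carriers of the plasma membrane feed protein synthesis.

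The arrays compared the retina of adult C57/B6 mice with the cerebral cortex of mice at postnatal day 1, and the stated purpose was to measure variation between replicates and between sites. The first site ran 5 retina and 5 cortex arrays, and site 2 ran 3 retina and 3 cortex arrays. Per the first-site descriptions the retina pool came from 350 mice and the cortex pool from 19 mice, with RNA taken up in TRIzol and about 10 µg of total RNA labelled per array. The labels disagree on the cortex strain, which is C57/B6 in the first-site sample descriptions and Swiss-Webster in the design text. No treatment or genetic change is named for any group. Organ, age and possibly strain therefore cannot be told apart in the tissue difference. The arrays of a tissue are aliquots of 1 RNA pool, so p-values measure only technical spread and not the variation among mice.

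Array medians of the deposited intensity ran from 45.7 to 216 and summed intensity from 2531155 to 8753139. On each array 68.5% to 78.8% of probe sets lay above the highest of 13 control probe sets that had no added target, which served as the floor. Replicate 2 of the site 2 cortex arrays was the dimmest and correlated least with its group, at a mean of 0.943, against 0.965 and 0.967 for the other cortex arrays of that site. The 3 rod photoreceptor markers measured (of 4 listed) summed to scaled intensities of 23227 to 26990 in first-site retina and 43.8 to 56.7 in first-site cortex. All 3 markers of immature cortical neurons were lower in retina at both sites, so both tissues carried the markers of their labels.

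Of the 146 carriers, 96 were above the floor on all 16 arrays, 40 on some, and 10 on none. Those 10 were Slc2a2, Slc7a7, Slc7a11, Slc10a2, Slc22a4, Slc23a1, Slc25a48, Slc26a1, Slc27a5 and Slc35a4. No member was left out of the tests for a low value. Intensities of single genes are given after scaling every array to a median of 100. Differences are retina minus cortex on the log2(intensity + 16) scale after centring each array on its median, a scale on which changes of dim probe sets come out too small, and are given ± SE from limma with p-values adjusted over all 12422 probe sets. Where 2 differences follow each other, the first-site value stands before that of site 2.

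Carriers differed widely between the tissues, with no common direction. At the first site 44 members (30.1%) were higher in retina, 38 (26%) were lower and 64 did not pass at an adjusted p of 0.05. Among all genes represented, 25.5% were higher and 28% were lower, and 53.5% passed in either direction, against 56.2% of the members. Retina and cortex arrays were fully apart for 35 members with retina higher and 35 with retina lower, against 21% and 23.5% of all genes, and the members' shares lay near those of the array as a whole. A difference of at least 1 on the log2 scale, taken here as at least 2-fold, was called higher for 12 members (8.22%, against 8.46% of all genes) and lower for 13 (8.9%, against 8.92%). Adjusted p ran from 1.2e-12 to 0.00066 for those 12 and from 1e-10 to 5.5e-05 for those 13. For 3 of the 12 and 2 of the 13, every array of the dimmer tissue was at or under the floor. Their fold is known only as a lower bound, which can lie under 2. The median difference of the members was -0.07, against -0.04 for all genes. In pooled tissue, fewer cells of a type and less RNA per cell cannot be told apart.

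**Figure D1:**
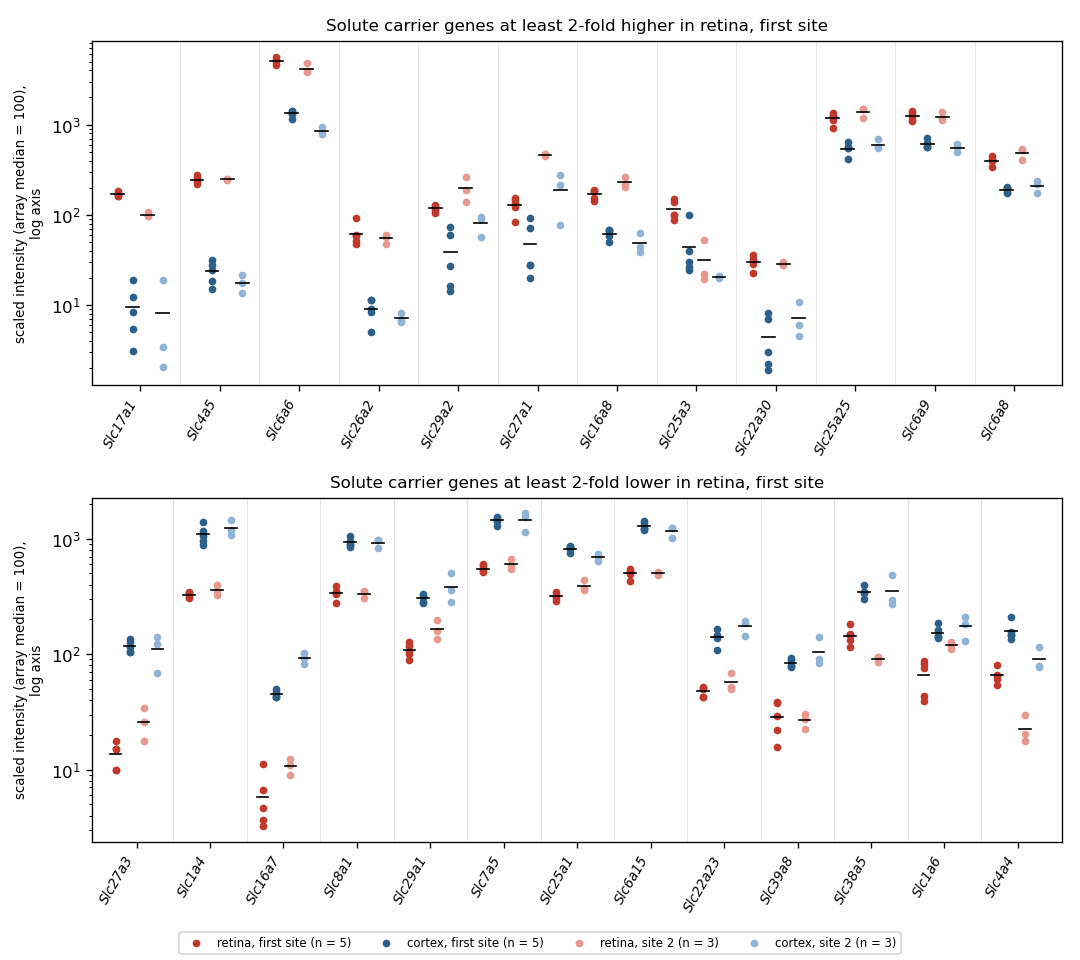
Scaled intensity (log axis, array median 100) of the 12 carriers at least 2-fold higher in retina at the first site (top) and the 13 at least 2-fold lower (bottom); each point is an array, bars are group means, with 5 arrays per tissue at the first site and 3 per tissue at site 2. The carriers were picked by their first-site difference, so separation at that site follows largely from the choice. Retina and cortex points are apart at both sites for 10 of the 12 and for all 13.

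In the SLC6 family, the taurine carrier Slc6a6, the glycine carrier Slc6a9 and the creatine carrier Slc6a8 were higher in retina. Slc6a6, the taurine transporter, had scaled intensities of 4632, 5170.1, 5072, 5632 and 5089 on the first-site retina arrays, against 1298, 1411, 1431, 1349 and 1160.1 on the first-site cortex arrays. At site 2 it had 3835, 3931 and 4774 in retina, against 796, 949.9 and 828 in cortex. Every retina array lay above every cortex array at both sites, and the difference was 1.94 ± 0.07 at the first site (adjusted p = 1.2e-12) and 2.29 ± 0.15 at site 2 (adjusted p = 1.7e-06). A further probe set of Slc6a6 gave 0.52 at the first site, where it did not pass, and 1.46 at site 2, where it did.

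Slc6a9, the glycine transporter GlyT1, had 1334, 1221, 1104, 1136 and 1414 in first-site retina, against 571, 579, 618, 565 and 712 in first-site cortex. Its retina arrays did not overlap the cortex arrays, and the difference was 1.02 ± 0.09 there and 1.14 ± 0.17 at site 2. Slc6a8, the creatine transporter, had 414, 445, 391, 407 and 337 in first-site retina, against 198, 174, 178, 200.3 and 203 in first-site cortex, a difference of 1.01 ± 0.09. At site 2 it was higher by 1.16 ± 0.18, again without overlap. A dimmer second probe set of Slc6a8 gave -0.20 at the first site. Slc6a15, which carries branched-chain amino acids and proline into neurons, went the other way and was lower in retina, with a difference of -1.33 ± 0.08 at the first site (adjusted p = 9.1e-10) and -1.16 ± 0.17 at site 2. Slc6a13, the GABA and taurine carrier GAT2, was lower at the first site, with a difference of -0.25 ± 0.08, and had a difference of 0.12 at site 2, which did not pass. The probe set used for Slc6a4, the serotonin transporter, had differences of 0.06 and -0.10 that did not pass, whereas another of its probe sets was lower in retina, with differences of -1.46 ± 0.15 and -1.98. In all, 3 of the 11 transmitter and osmolyte carriers were higher and 2 lower at the first site. These are 27.3% and 18.2%, against 25.5% and 28% of all genes. At site 2, 3 were higher and 1 lower (27.3% and 9.09%, against 20.1% and 17.9%).

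Among carriers of bicarbonate and other anions, the electrogenic sodium bicarbonate cotransporters moved in opposite directions. Slc4a5, known as NBCe2, had 263, 240.4, 228, 279 and 219 in first-site retina, against 15.2, 31.9, 27.8, 18.5 and 24.8 in first-site cortex. At site 2 its values were 243, 252 and 247 in retina, against 13.6, 17.7 and 21.5 in cortex. The retina values were alike at both sites and far from every cortex value, 3 of which lay above the floor, and the difference was 2.78 ± 0.14 (adjusted p = 8.7e-11) at the first site and 2.99 ± 0.22 (adjusted p = 4.3e-06) at site 2.

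Slc4a4, known as NBCe1, had 66, 61.5, 81.2, 54.3 and 64.9 in first-site retina, against 134, 145, 156, 146 and 209 in first-site cortex. The difference was -1.10 ± 0.13 there and -1.47 ± 0.22 at site 2, without overlap at either site. Slc26a2, a sulfate transporter, had 59.3, 57.7, 51.4, 91.1 and 47.4 in first-site retina, against 9.14, 11.3, 11.5, 5.06 and 8.36 in first-site cortex, all of the cortex values at or under the floor. Where every array of the dimmer tissue was at or under the floor, the fold is a lower bound with values raised to it, and Slc26a2 was at least 2.29-fold higher in retina at the first site and at least 3.02-fold at site 2. Slc4a2, the anion exchanger AE2, was higher by 0.39 ± 0.08. Slc4a1, the anion exchanger of red cells, was lower at site 2, with a difference of -0.96 ± 0.27, and had a first-site difference of -0.33 that did not pass. The site 2 call was lost without any of 3 of the 6 arrays. The red cell markers were lower in retina for 3 of the 4 measured (of 7 listed), and summed to 742 to 875 in first-site retina and 3252 to 3674 in first-site cortex; their part in the Slc4a1 difference was not tested.

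Monocarboxylate carriers take up and release lactate, pyruvate and ketone bodies. The 2 members of this class moved in opposite directions. Slc16a8, known as MCT3 and found in the pigment epithelium, had 189.7, 183, 182, 143 and 154 in first-site retina, against 67.9, 50.1, 57.8, 67.2 and 66.7 in first-site cortex. Site 2 gave 221, 204 and 265 in retina, against 62.1, 39.2 and 44.2 in cortex. All retina arrays lay above all cortex arrays, and the difference was 1.27 ± 0.12 at the first site (adjusted p = 1.2e-07) and 1.93 ± 0.18 at site 2.

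Slc16a7, the high-affinity pyruvate and lactate carrier MCT2, had 4.62, 11.1, 3.22, 6.62 and 3.64 in first-site retina, against 42.5, 46.8, 42.8, 50.1 and 44.4 in first-site cortex. Site 2 gave 12.4, 9.02 and 11 in retina, against 82.2, 91.9 and 102 in cortex. No retina array was above the floor, so Slc16a7 was at least 1.88-fold lower in retina at the first site (difference -1.61 ± 0.16, adjusted p = 2.7e-07) and at least 5.35-fold lower at site 2. The chaperones that carry monocarboxylate carriers to the membrane, Bsg and Emb, were both higher in retina at both sites, Bsg by 0.92 and 1.23 and Emb by 2.12 and 1.77. All 4 pigment epithelium markers measured (of 5 listed) were higher in retina at both sites, against 25.5% and 20.1% of all genes. They summed to 744 to 874 in first-site retina and 109 to 138 in first-site cortex, where 2 of them were at or under the floor on every array. At site 2 they summed to 815 to 907 in retina and 79.5 to 110 in cortex. The 3 choroid plexus markers went both ways, with 2 higher and 1 lower at the first site and 1 each way at site 2. They summed to 403 to 594 in first-site retina and 467 to 663 in first-site cortex. The part of the cells marked by either list in the Slc16a8 and Slc4a5 differences was not tested.

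The promoters of Slc4a5 and Slc16a8 are shown as examples from the carriers at least 2-fold higher in retina that had a single annotated start. Their arrays did not overlap at either site, which also held for other carriers at least 2-fold higher, such as Slc29a2. The sequences are the 250 bases before the start of the gene in RefSeq, build GRCm38.p6, 5′ to 3′ on the strand of the gene, with the last 50 bases before the start in capitals. Slc4a5 lies at chr6:83237125-83237374 on the plus strand and Slc16a8 at chr15:79254749-79254998 on the minus strand.
Slc4a5: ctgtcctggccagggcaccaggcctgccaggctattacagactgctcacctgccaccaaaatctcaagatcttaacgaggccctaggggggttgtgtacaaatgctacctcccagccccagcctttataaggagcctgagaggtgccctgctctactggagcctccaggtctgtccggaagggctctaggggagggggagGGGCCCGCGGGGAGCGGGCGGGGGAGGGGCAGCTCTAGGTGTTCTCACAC
Slc16a8: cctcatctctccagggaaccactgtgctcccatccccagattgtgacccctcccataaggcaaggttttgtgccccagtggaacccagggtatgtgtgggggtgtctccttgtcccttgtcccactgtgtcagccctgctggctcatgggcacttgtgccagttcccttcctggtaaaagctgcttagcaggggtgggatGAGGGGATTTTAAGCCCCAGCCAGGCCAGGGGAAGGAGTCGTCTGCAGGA
The Slc4a5 stretch held 62.8% G and C with 6 CpG, and the Slc16a8 stretch 58.8% with 1 CpG. TAATCC, the core bound by homeodomain factors of the CRX and OTX type, was searched on both strands (as GGATTA on the other) in RefSeq windows running from 250 bases before the start to 50 bases after it. Neither it nor its reverse complement was found in the 16 windows of the carriers at least 2-fold higher in retina, for which 9 of 12 genes had a window. It was in 1 of the 19 windows (5.26%) of the carriers at least 2-fold lower, for which 10 of 13 genes had a window. Over the 120 members with a window it was in 8 of 171 windows (4.68%), and over all windows in 2320 of 32851 (7.06%). The sets of 16 and 19 windows are too small to tell their shares from that over all windows. The median G and C content of the 250 bases before the start was 60% for the 2-fold higher carriers. It was 62% for the 2-fold lower ones and 52.4% over all windows.

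Of 19 carriers of amino acids in the plasma membrane, 1 was higher and 7 were lower at the first site (5.26% and 36.8%, against 25.5% and 28% of all genes). The counts at site 2 were the same (against 20.1% and 17.9% of all genes). The first-site median difference was -0.33. Slc7a5, the large neutral amino acid carrier LAT1, had 543, 575, 521, 599 and 518 in first-site retina, against 1520.0, 1286, 1459, 1424 and 1547 in first-site cortex. It had 597, 547 and 669 in site 2 retina, against 1656, 1137 and 1547 in site 2 cortex. The tissues did not overlap at either site, and the difference was -1.36 ± 0.07 at the first site (adjusted p = 1.6e-10) and -1.20 ± 0.21 at site 2. Its partner Slc3a2, the heavy chain that brings LAT1 to the membrane, had 2180.1, 2088, 2054, 2037 and 1794 in first-site retina, against 1664, 1082, 1414, 1634 and 1768 in first-site cortex. Slc3a2 was called higher at the first site (0.45 ± 0.12) and had a difference of 0.37 at site 2 that did not pass, so the chains of this carrier were called in opposite directions at the first site.

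Slc1a4, the neutral amino acid exchanger ASCT1, had 336, 306, 312, 337 and 349 in first-site retina, against 875, 947, 1404, 1156 and 1065 in first-site cortex. The difference was -1.66 ± 0.11 (adjusted p = 1.3e-09) there and -1.71 ± 0.14 at site 2, without overlap. Slc38a5, a glutamine carrier, had 132, 146, 116, 149.8 and 182 in first-site retina, against 344, 340.1, 349, 395 and 299.9 in first-site cortex, and was lower, with a difference of -1.18 ± 0.11 and, at site 2, of -1.70 ± 0.18. Slc1a6, the glutamate transporter EAAT4 known from Purkinje cells of the cerebellum, was lower at the first site, with a difference of -1.11 ± 0.18, and had a difference of -0.47 at site 2, which did not pass. At the first site its retina arrays fell into 75.9 to 86.6 for 3 arrays and 39.3 to 43.2 for the other 2. The following amino acid carriers were called at site 2 alone: Slc7a8 (LAT2), higher by 0.70 ± 0.22, and Slc38a4 and Slc7a1, lower, with differences of -1.16 ± 0.27 and -1.09 ± 0.31; these were picked after their values were seen, and the calls of Slc7a8 and Slc7a1 were lost without any of 2 and 4 of the 6 arrays.

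Carriers of the mitochondrial SLC25 family passed in both directions. Of 20 members, 10 were higher and 6 lower at the first site (50% and 30%, against 25.5% and 28% of all genes), with a median difference of 0.29. At site 2, 6 were higher and 4 lower (30% and 20%, against 20.1% and 17.9%). Slc25a25, a calcium-regulated carrier of ATP-Mg and phosphate, had 1328, 911, 1235, 1256 and 1138 in first-site retina, against 641, 551, 559, 416 and 546 in first-site cortex, a difference of 1.10 ± 0.12. It was higher at site 2 by 1.21 ± 0.18, without overlap at either site. Slc25a1, the citrate carrier that supplies carbon for fatty acid and sterol synthesis, had 323, 309, 286, 344 and 318 in first-site retina, against 791, 856, 858, 753 and 845 in first-site cortex. It was lower, with a difference of -1.33 ± 0.07 at the first site (adjusted p = 1e-10) and -0.77 ± 0.17 at site 2. Lower at both sites were also Slc25a36, a pyrimidine nucleotide carrier (-0.76 and -0.83), and the peroxisomal carrier Slc25a17 (-0.76 and -0.45). The site 2 call of Slc25a17 was lost without any of 5 of the 6 arrays and that of Slc25a36 without 1.

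Slc25a3, the mitochondrial phosphate carrier, had 138, 101, 87.7, 98.6 and 149 in first-site retina, against 39.9, 30.1, 26.5, 101 and 24.3 in first-site cortex. Replicate 4 of cortex overlapped the retina arrays. The difference was 1.23 ± 0.25 with that array and 1.51 without it, and at site 2 it was 0.30, which did not pass. The ADP/ATP carriers Slc25a5 and Slc25a4 were higher at the first site by 0.51 ± 0.10 and 0.18 ± 0.07. At site 2 Slc25a5 was again higher, by 0.88 (0.57 without the dim replicate 2 of cortex, with the call lost without any of 3 of the 6 arrays), and Slc25a4 had a difference of 0.18 that did not pass. The first-site call of Slc25a4 was lost without any of 7 arrays. Of the further probe sets of Slc25a5, 1 was called higher at the first site (0.56) and 1 gave -0.36 and -0.89, which did not pass.

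The nucleoside carriers split. Slc29a1, the equilibrative nucleoside transporter ENT1, had 107, 99.5, 127, 117 and 88.5 in first-site retina, against 313, 329, 321, 283 and 275 in first-site cortex, a difference of -1.38 ± 0.10. A further probe set of Slc29a1 gave -0.32 at the first site and -0.08 at site 2, neither of which passed. Slc29a2, known as ENT2, had 128, 112, 120.5, 104 and 124 in first-site retina, against 16.2, 73.8, 60.3, 26.9 and 14.4 in first-site cortex, a difference of 1.48 ± 0.27. The cortex values of Slc29a2 were scattered but stayed under every retina value, and at site 2 Slc29a1 was lower, with a difference of -1.10 ± 0.20, and Slc29a2 higher by 1.15 ± 0.25.

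Fatty acid carriers also passed in both directions. Of 5, 1 was higher and 2 were lower at the first site (20% and 40%, against 25.5% and 28% of all genes). At site 2, 1 was higher and 1 lower (20% each, against 20.1% and 17.9%). Slc27a4 was lower at the first site, with a difference of -0.39. Slc27a3, a member of the fatty acid transport protein family, had 9.95, 15, 17.9, 9.98 and 15 in first-site retina, all at or under the floor, against 115, 128, 105, 134 and 105 in first-site cortex. With retina raised to the floor, Slc27a3 was at least 4.87-fold lower (difference -2.26 ± 0.15, adjusted p = 1.9e-09), and at site 2 the difference was -1.64 ± 0.27. Slc27a1, which takes up long-chain fatty acids, had 152, 145, 121, 137 and 83.9 in first-site retina, against 27.7, 27.7, 19.8, 70.6 and 93.3 in first-site cortex. Its tissues overlapped by 1 retina and 1 cortex array at the first site, with differences of 1.30 ± 0.27 there and 1.34 ± 0.35 at site 2. Without the dimmest site 2 cortex array, replicate 2, the site 2 difference of Slc27a1 was 0.84.

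Among the 6 cation chloride cotransporters, 1 was higher and 1 lower at the first site (16.7% each, against 25.5% and 28% of all genes). The counts at site 2 were the same (against 20.1% and 17.9%). Those called are known for setting neuronal chloride. Slc12a5, the neuronal chloride extruder KCC2, had 146, 157, 156, 117 and 154 in first-site retina, against 78.2, 69.9, 67.2, 92.3 and 73.8 in first-site cortex. Site 2 gave 338, 231 and 294 in retina, against 124, 36.8 and 119.9 in cortex. Slc12a5 was higher, with a difference of 0.82 ± 0.12 (adjusted p = 1.6e-05) at the first site and 1.51 ± 0.30 at site 2, where the difference was 1.12 without the dim replicate 2 of cortex.

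Slc12a2, the chloride importer NKCC1, had 829, 782, 740.4, 759.5 and 707 in first-site retina, against 926, 821, 876, 943 and 1072 in first-site cortex. The lowest cortex array lay just below the highest retina array, and Slc12a2 was lower, with a difference of -0.26 ± 0.08 (adjusted p = 0.015) at the first site and -0.55 ± 0.15 at site 2, where the call was lost without any of 2 of the 6 arrays. The other 4 members of the class passed at neither site (1 of them reached an unadjusted p of 0.05 at a site). Slc8a1, the sodium/calcium exchanger NCX1, had 388, 333, 352, 341 and 279 in first-site retina, against 897, 849, 878, 963 and 1056 in first-site cortex. It was lower, with a difference of -1.41 ± 0.09 (adjusted p = 2.3e-09) and, at site 2, of -1.40, and its 2 further probe sets were also lower. Of the sodium pump genes that set the gradient, 3 of 6 were measured, and Atp1b2 was higher by 2.34 and 2.61 while Atp1b3 was higher at the first site by 0.17.

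Both members of the vesicular and SLC17 class were called higher at both sites, against 17.5% of all genes. For 1 of them, Slc18a3, every first-site value was at or under the floor. Slc17a1, a sodium-dependent phosphate and organic anion carrier best known from kidney, had 184, 163, 176, 161 and 169 in first-site retina, against 3.11, 12.3, 18.9, 5.41 and 8.28 in first-site cortex. Site 2 gave 98.2, 97.8 and 107 in retina, against 3.45, 18.8 and 2.08 in cortex. All cortex values were at or under the floor, and Slc17a1 was at least 6.54-fold higher at the first site (difference 2.97 ± 0.17, adjusted p = 4.4e-10) and at least 5.58-fold at site 2. A second Slc17a1 probe set was called higher at the first site (0.95 ± 0.17) and had a difference of 1.26 at site 2 that did not pass.

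Slc18a3 encodes the vesicular acetylcholine transporter, which loads acetylcholine into synaptic vesicles and in retina marks starburst amacrine cells. It had 22.3, 15.8, 18.1, 22.3 and 20.9 in first-site retina, against 6.49, 5.88, 5.97, 3.95 and 11 in first-site cortex. All 10 values were at or under the floor, so the first-site call (0.67 ± 0.14, adjusted p = 0.00075) gives no fold. At site 2 it had 87.7, 111 and 101 in retina, against 5.54, 5.69 and 2.41 in cortex, and was at least 5.5-fold higher there (difference 2.62 ± 0.39). Of the vacuolar proton pump genes that power vesicle loading, 12 of 15 were measured. At the first site 8 were higher and 1 lower, against 25.5% and 28% of all genes. At site 2, 6 were higher and 0 lower by limma (1 lower at an unadjusted p of 0.05), against 20.1% and 17.9%. Their relation to the Slc18a3 difference was not tested.

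Metal carriers passed in both directions. Of 16, 7 were higher and 5 lower at the first site (43.8% and 31.2%, against 25.5% and 28% of all genes). At site 2, 5 were higher and 4 lower (31.2% and 25%, against 20.1% and 17.9%). The zinc carriers of the SLC39 family, which bring zinc into the cytosol, held both. Slc39a3 was higher by 0.74 ± 0.08 and 0.98 ± 0.19. Slc39a8 was lower, with differences of -1.23 ± 0.16 and -1.48 ± 0.22, and so was Slc39a6, with -0.77 ± 0.10 and -0.94 ± 0.18. Slc39a8 had 29.1, 22, 37.8, 15.5 and 38.4 in first-site retina, against 93.3, 80.7, 78.3, 77.6 and 89.3 in first-site cortex, so every retina value lay under every cortex value. Slc30a9 and Slc30a5, of the SLC30 family of zinc carriers, were higher at the first site by 0.87 ± 0.13 and 0.82 ± 0.15, and Slc30a9 also at site 2, by 0.91. The copper importer Slc31a1 was lower at both sites, with differences of -0.38 and -0.43, its site 2 call being lost without any of 5 of the 6 arrays. The magnesium carrier Slc41a1, picked after its values were seen, was higher by 0.61 and 0.86.

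Of 14 carriers of organic ions and bile acids, 1 was higher and 5 were lower at the first site (7.14% and 35.7%, against 25.5% and 28% of all genes). At site 2, 0 were higher and 3 lower by limma (0% and 21.4%, against 20.1% and 17.9%). At site 2, 1 member was higher at an unadjusted p of 0.05. Slc22a23, an orphan member of the organic ion family, had 50.7, 50.3, 51.7, 42.8 and 42.4 in first-site retina, against 141, 109, 139, 166 and 148 in first-site cortex, and was lower, with a difference of -1.32 ± 0.12 and, at site 2, -1.40 ± 0.20. Slc22a6, the organic anion transporter OAT1 best known from kidney, was at least 1.22-fold lower at the first site and at least 2.35-fold at site 2, with no retina array above the floor. Slc22a30, of the same family, was at least 1.2-fold higher at the first site, a small bound from a dim probe set, and its site 2 difference of 0.93 did not pass.

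Vitamin, phosphate, sugar, choline and heme carriers had first-site differences under 2-fold. Slc23a2, the ascorbate transporter SVCT2, had 909, 908, 856, 957 and 875 in first-site retina, against 562, 569.8, 615, 668 and 642 in first-site cortex, and was higher by 0.56 ± 0.07 and, at site 2, 0.68 ± 0.14. The phosphate carrier Slc20a1, known as PiT1, was higher by 0.63 ± 0.07 and 0.56 ± 0.14, its site 2 call being lost without 1 of the 6 arrays. Slc5a6, the sodium-dependent multivitamin transporter, which its family number puts among the sugar carriers, was higher by 0.74 ± 0.12 and 0.67 ± 0.14. Slc44a1, a choline transporter-like protein, had 263, 288, 263, 274 and 350.4 in first-site retina, against 157, 127, 184, 111 and 134 in first-site cortex. Its difference was 0.96 ± 0.12 there and 1.74 ± 0.19 at site 2, both called. Slc44a2, of the same family, was lower at the first site, with a difference of -0.69 ± 0.14, and had a difference of -0.43 at site 2 that did not pass. Slc48a1, a heme transporter of endosomes, was higher at both sites by 0.41 and 0.66. Its site 2 call was lost without any of 4 of the 6 arrays, and the site 2 difference was 0.43 without the dim replicate 2 of cortex. Slc46a1, the proton-coupled folate transporter, was higher at the first site by 0.58 ± 0.22 (adjusted p = 0.045), a call that was lost when any of 7 arrays was left out, and had 0.17 at site 2.

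Inside the secretory pathway, carriers bring nucleotide sugars and acetyl-CoA from the cytosol for glycosylation and acetylation. Of 11 members 4 were higher and 2 lower at the first site (36.4% and 18.2%, against 25.5% and 28% of all genes). At site 2, 3 were higher and 1 lower (27.3% and 9.09%, against 20.1% and 17.9%). Slc35c2 was higher by 0.57 ± 0.08 and 0.92 ± 0.16, and Slc35b1 was lower, with differences of -0.76 ± 0.08 and -0.55 ± 0.14, its site 2 call being lost without any of 3 of the 6 arrays. Slc33a1, the acetyl-CoA carrier, was called higher at the first site (0.62 ± 0.14) and had 0.06 at site 2, which did not pass. Slc35a1, the carrier of CMP-sialic acid, was lower at the first site, with a difference of -0.42 ± 0.10, and had -0.35 at site 2, which did not pass.

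The remaining classes held few members. The peptide carrier Slc15a2, known as PepT2, was higher at the first site by 0.39 ± 0.10, and Slc9b2, a sodium/hydrogen exchanger, was lower there, with a difference of -0.48 ± 0.14. Among 3 proteins that are named after carriers but are adaptors, Slc4a1ap was higher by 0.39 and 0.54, the site 2 call being lost without any of 5 of the 6 arrays, and the scaffold protein Slc9a3r1 was lower at the first site, with a difference of -0.45 ± 0.08. Of the 22 substrate classes, 13 had first-site calls in both directions. The other 9 had calls in 1 direction only, and 3 of these held a single member.

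**Figure D2:**
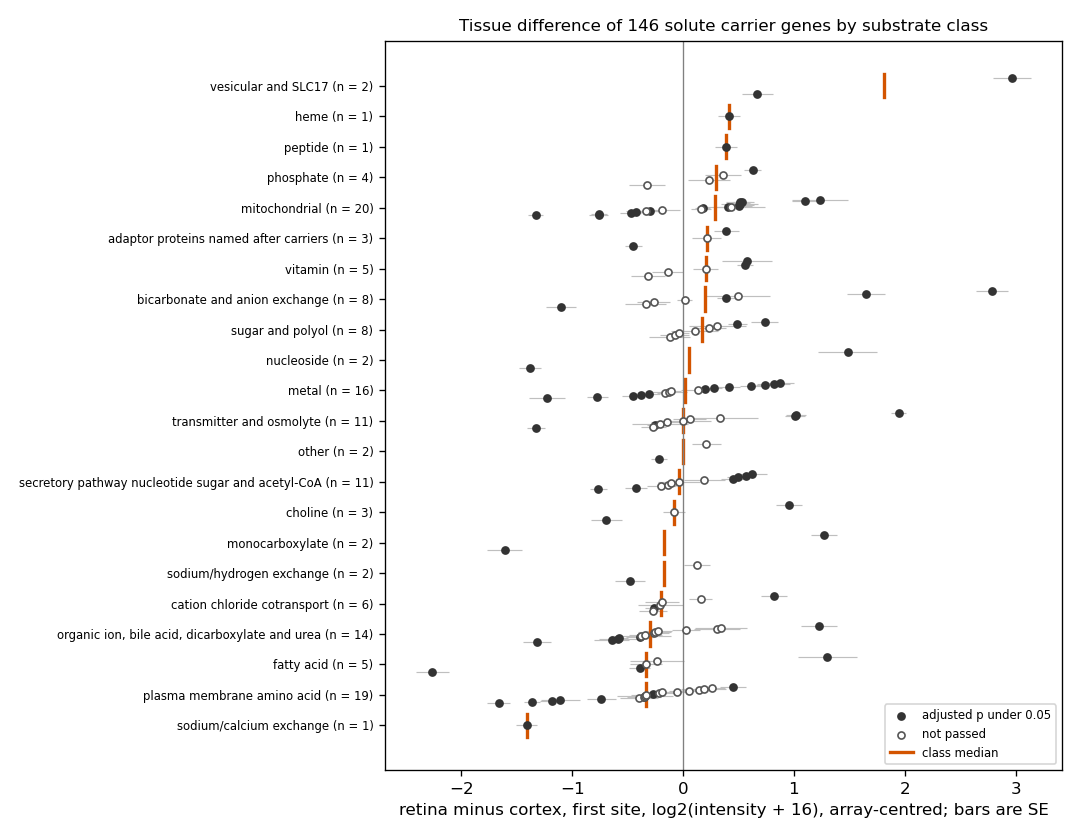
Retina minus cortex at the first site on the log2(intensity + 16) scale for each of the 146 carriers, grouped by substrate class; filled points passed at an adjusted p of 0.05, open points did not, horizontal lines are SE and orange bars class medians. The 20 mitochondrial carriers have a median of 0.29 and the 19 plasma membrane amino acid carriers one of -0.33.

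At site 2 the same comparison called 35 members higher (24%, against 20.1% of all genes) and 28 lower (19.2%, against 17.9%). Called in the same direction at both sites were 32 members higher in retina (21.9%, against 17.5% of all genes) and 24 lower (16.4%, against 16.3%), and no member was called in opposite directions by limma (0 at an unadjusted p of 0.05 too, against 0.17% of all genes called so). The tissues did not overlap at site 2 for 40 members with retina higher and 42 with retina lower, against 26.6% and 26.3% of all genes. Of the 63 site 2 calls, 39 held without each array in turn, against 74 of the 82 first-site calls. Leaving out the dim cortex replicate 2 of site 2 gave 44 higher and 33 lower, and leaving out retina replicate 2 or 3 of site 2 gave 23 higher each. Of the 12 carriers at least 2-fold higher at the first site, 10 were also called at site 2, all but Slc22a30 and Slc25a3. Of the 13 at least 2-fold lower, 12 were, all but Slc1a6. There were 57 members that passed at neither site, with first-site differences from -0.38 to 0.50. Among 28 members with several probe sets, none had probe sets called in opposite tissue directions at either site. Of the 16 called at the first site, 8 had a further probe set called the same way and 5 a further probe set of opposite sign that did not pass, and 3 members were called by a further probe set alone.

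**Figure D3:**
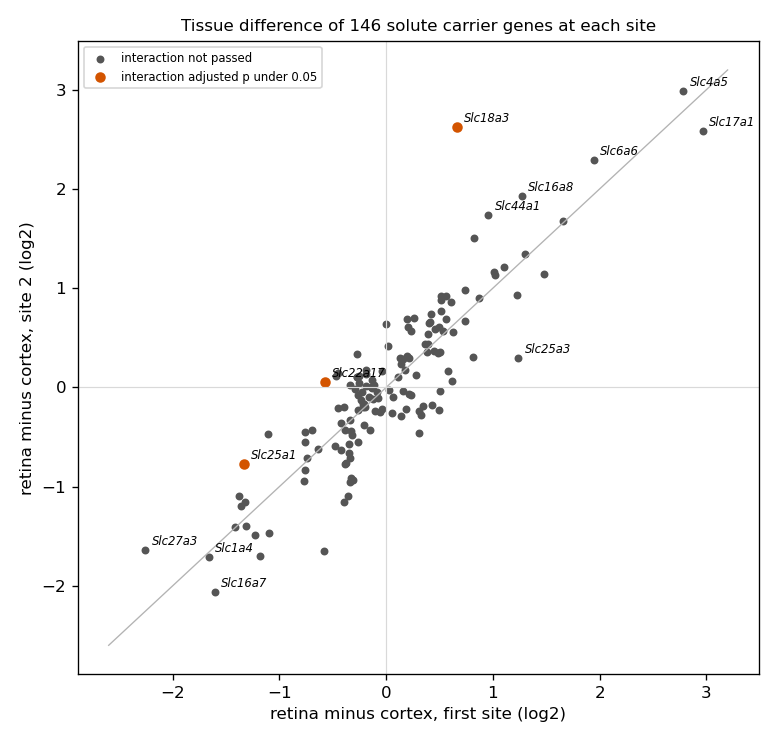
Retina minus cortex at site 2 (vertical) against the first site (horizontal) for 146 carriers, both on the log2(intensity + 16) scale; the line marks equal differences and orange points are the 3 members whose difference itself differed between the sites. Slc18a3 lies at 0.67 and 2.62, off the line.

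The tissue difference itself differed between the sites for 3 members (2.05%, against 3.82% of all genes), tested as the interaction of tissue and site over all 16 arrays. These were Slc18a3 (1.95 ± 0.38, adjusted p = 0.0055), Slc22a17, a receptor for lipocalin 2 (0.63 ± 0.17, adjusted p = 0.041), and Slc25a1 (0.56 ± 0.15, adjusted p = 0.044). Slc22a17 had 1288, 1289, 1199.8, 1338 and 1091 in first-site retina, against 1864, 1989, 1784, 1676 and 2026 in first-site cortex. At site 2 it had 2095, 2325 and 2504 in retina, against 2492, 2070.5 and 2257 in cortex, so the tissues were apart at the first site and overlapped at site 2. The Slc18a3 call held when each of the 16 arrays in turn was left out. The Slc22a17 call was lost without any of 9 arrays and the Slc25a1 call without any of 13. A further probe set of Slc25a1 was lower in retina by similar amounts at the sites (-1.24 and -1.10), and its interaction of 0.14 did not pass.

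Per the design text the arrays of both sites drew on the same pools, and the sites were also compared within each tissue. In retina 36 members were higher at site 2 than at the first site and 22 were lower (24.7% and 15.1%, against 27% and 11.5% of all genes). In cortex 15 were higher and 10 lower (10.3% and 6.85%, against 11.9% and 6.04%), and without cortex replicate 2 of site 2 the 25 calls became 48. Slc27a1 was brighter at site 2 in retina by 1.77 ± 0.34 and in cortex by 1.73 ± 0.34. The zinc carrier Slc39a4 was dimmer at site 2 in both tissues, with differences of -1.72 ± 0.18 in retina and -1.09 ± 0.18 in cortex. Slc39a4 had 166, 152 and 252 in site 2 retina, against 732, 563, 685, 587 and 663 in first-site retina, so the sites did not overlap. A further probe set of Slc39a4 gave -0.18 in retina and -0.52 in cortex between the sites, neither of which passed. Its tissue differences of 0.29 and 0.63 did not pass either and had the opposite sign to the -0.31 and -0.94 of the probe set used, whose calls were lost without any of 2 arrays at each site. Slc4a4 was dimmer at site 2, with differences of -1.10 in retina and -0.74 in cortex, while it was lower in retina than in cortex at both sites.

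Other large differences between the sites were Slc18a3 (1.74) and Slc25a3 (-1.53) in retina, the mitochondrial carrier Slc25a14 (1.09 in cortex), and the urate carrier Slc22a12 (-0.81 in cortex). Slc23a3, of the ascorbate carrier family, was brighter at site 2 by 0.96 in retina and 1.12 in cortex, but its further probe set gave -0.28 in retina, which did not pass, and was called dimmer in cortex, with -0.62 (adjusted p = 0.0049). Slc6a6 and Slc35e1 likewise had a further probe set called the opposite way between the sites in retina. For Slc27a1 and Slc39a4 the retina and cortex moved the same way, and the tissue difference was called in the same direction at both sites.

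**Figure D4:**
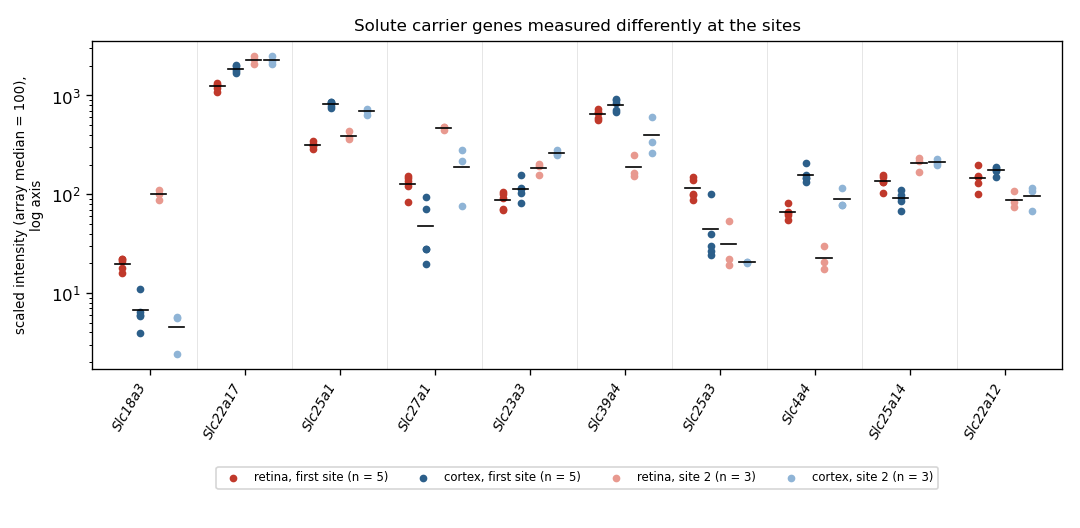
Scaled intensity (log axis, array median 100) of the 3 carriers with a differing tissue difference and of those with the largest differences between sites; each point is an array and bars are group means, with 5 arrays per tissue at the first site and 3 at site 2. Slc18a3 reaches 87.7 to 111 in site 2 retina and stays at 22.3 or less in the other groups.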

How the data were processed

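The deposited values are probe set intensities on a linear scale, 1 per probe set and array; how the authors summarised, background-corrected or scaled them is not given in the sources used here. Per the labels, biotin-labelled cRNA from total RNA was hybridised. Of the tested probe sets 10833 carried 1 gene symbol, 396 several and 1193 none here; 66 control probe sets were left out. Symbols were updated through RefSeq (GRCm38.p6), which held 10817 of them.

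Values were turned into log2(deposited intensity + 16), each array was centred on its median, and limma 3.58.1 in R 4.3.3 was fitted (lmFit, eBayes with an intensity trend, two-sided, Benjamini-Hochberg over all probe sets), per site for the tissue difference and over 16 arrays for the interaction and the site differences. The fitting code was run on simulated data with independent normal noise per probe set and planted changes. Those data held no dim or shifted array, so that run checks the code and not the calls made here. Arrays have no read depth; their number and their signal over the floor limit the precision. Replicate numbers did not pair the arrays: correlations of same-numbered deviations ran from -0.19 to 0.08.

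The members and lists were chosen with earlier results of these data known. Substrate classes follow the SLC family number, and the class of 3 adaptor proteins was made after the list was seen. Named genes are, per class, up to 3 per direction with the largest called first-site difference. Members with a called interaction and up to 3 per direction for each site difference were also named. Slc22a21, Slc25a11, Slc35e1, Slc39a9, Slc50a1 and Slc66a2 met the class rule and entered the checks, but their tissue differences are not given above. Slc1a6, Slc4a1, Slc6a4, Slc7a1, Slc7a8, Slc25a4, Slc25a5, Slc31a1, Slc38a4 and Slc41a1, and the 10 members at the floor, were named after their values were seen. The alternatives tried were the replicate number as a block, quantile normalization, no centring, pseudocounts of 1 and 50, scaling to a median of 100 before the pseudocount, a fit without the intensity trend, brighter probe sets only, 1 fit over all arrays, another probe set of the gene, and leaving out each array.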

Additional observations from a re-analysis of the deposited data

Results flagged for a closer look

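Among 128 groups of 5 arrays (64 named carriers in each first-site tissue), 7 held 1 array whose scaled intensity stood apart from the other 4 by Dixon's test at 95%; chance alone gives about 1 in 20 groups. Slc25a3 had 101 in cortex replicate 4, against 24.3 to 39.9 in the others. Slc26a2 had 91.1 in retina replicate 4 (others 47.4 to 59.3) and Slc12a5 had 117 in that array (others 146 to 157). Slc39a9 had 116 in retina replicate 5 (others 142 to 151) and Slc39a3 had 323 in that array (others 367 to 372). Slc30a9 had 603 in retina replicate 1 (others 482 to 503), and Slc35e1 had 114 in cortex replicate 1 (others 119.9 to 122).

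The tissue difference, retina minus cortex, differed between site 2 and the first site for Slc18a3 by 1.95, for Slc22a17 by 0.63 and for Slc25a1 by 0.56 on the log2 scale, by the limma interaction. Slc18a3 was at or under the floor on all 10 first-site arrays. For Slc25a1 a further probe set gave an interaction of 0.14, which did not pass.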

How the results depend on the processing

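Without centring, 25 carriers were lower at the first site (38 with centring), 5 were higher and 4 lower at site 2 (35 and 28), 1 had an interaction (3), and 3 in retina and 1 in cortex differed between sites (58 and 25). The interaction count was 1 with quantile normalization or without the intensity trend, and 6 over the brighter probe sets alone. Leaving out each array in turn gave 40 to 45 higher and 37 to 45 lower at the first site, 23 to 44 higher and 19 to 33 lower at site 2, 1 to 6 interactions, and 39 to 67 (retina) and 19 to 48 (cortex) differences between sites. The replicate block, whose numbers do not pair the arrays, gave 43 higher and 37 lower at the first site and 33 and 26 at site 2. Every other count under the listed alternatives stayed within 1.5 times. Read from the same probe set, no named carrier changed its direction under these alternatives; first-site calls were lost in 29 of 1162 recomputations, site 2 calls in 101 of 650 and interaction calls in 30 of 68. Read from a further probe set, the sign was the opposite for 5 of the 16 carriers called at the first site that had such a probe set and for 4 of 14 called at site 2, none of them called. Over all members, 74 of the 82 first-site calls and 39 of the 63 site 2 calls held without each array in turn. The cause of these changes was not tested. Signals at or under the floor on every array limit what 10 carriers can show.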
